A study of Mus musculus with 11 samples.

Results

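The genes described are the 39 that encode enzymes and regulators of nucleotide synthesis and of the one-carbon, serine and polyamine pathways that feed it or draw on it, out of 48795 genes quantified by RNA-seq in sorted B cells of the mouse spleen. They were chosen by symbol from pathway knowledge, with earlier results of these data known, and matched to the table by Ensembl identifier. All 39 were found and passed the filter on low values in each comparison. RNA was sequenced from light zone (LZ) germinal center (GC) B cells of 4 MycWT mice and 4 MycVD mice and from memory B cells (MBCs) of 3 of the MycWT mice, 11 libraries in all. MycVD mice carry the Myc V394D substitution in the germline at the endogenous locus, which abolishes the interaction of Myc with Miz1 but not that with Max, so every cell of these mice carries it. All mice were females of 8 to 12 weeks, on a C57BL/6 background by the study's methods, immunized intravenously with sheep red blood cells and analyzed 10 days later. LZ B cells were sorted as B220+ CD138neg IgDneg CD38neg Fas+ CD86High CXCR4Low, and MBCs as B220+ CD138neg IgDneg CD38+ CD273+, after depletion of CD43+ cells on beads. MBCs of mice 1, 3 and 4 came from the same animals as the LZ libraries of those numbers, while mice 5 to 8 are the MycVD mice. The names of mice 1 to 3 share a prefix that differs from that of mouse 4 and from the one all MycVD mice share. The labels do not say what the prefixes stand for, and they cannot be told apart from genotype.

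A B cell that divides has to supply its polymerases with ribonucleotides and deoxynucleotides. De novo synthesis builds pyrimidines on carbamoyl phosphate and aspartate and purines on phosphoribosyl pyrophosphate (PRPP), with one-carbon units that serine passes to folate. Ribonucleotide reductase and thymidylate synthase then make the deoxynucleotides, salvage kinases recycle nucleosides, and Samhd1 hydrolyzes deoxynucleoside triphosphates (dNTPs). GC B cells are among the fastest dividing cells of the adult body, whereas MBCs are mostly resting. Myc is a textbook activator of nucleotide synthesis genes, and many of them carry the E-box CACGTG near their start.

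The values are TPM, estimated reads per unit of transcript length as a share of the library, so that levels of different genes can be compared, and they keep no depth. Ribosomal RNA took 35.7% to 44.5% of the TPM of MycWT LZ libraries, 44.1% to 61.3% of MycVD LZ libraries and 36.1% to 37.5% of MBC libraries, which leaves less for other genes where it is high. The median protein-coding gene lay -0.32 from MycWT on the log2 scale in MycVD LZ B cells and -0.13 in MBCs. A list of 8 GC B cell genes summed to 1370 to 1641 TPM in MycWT LZ, 1203 to 1639 TPM in MycVD LZ and 329 to 448 TPM in MBCs, and a list of 8 MBC genes to 52.3 to 63.2, 21.6 to 58.1 and 696 to 1008 TPM. A list of 5 light zone genes (Cd86, Cd83, Nfkbia, Il4i1 and Ccr6) did not set the LZ sort apart from MBCs, at 529 to 711, 425 to 557 and 645 to 872 TPM. Ccr6 counts in this list and in that of MBC genes, and was at 1.14 to 5.83 TPM in LZ libraries and 136 to 201 TPM in MBCs. The 3 genes of naive follicular B cells were higher in MBCs, at 363 to 367, 289 to 401 and 788 to 834 TPM. Genes of other cells were uneven among the MBC libraries, in which 6 erythroid genes summed to 7.6 to 6713 TPM with the highest value in mouse 3, 7 myeloid genes to 16.1 to 169 TPM and 7 T cell genes to 0.19 to 30.4 TPM, against at most 410, 12.6 and 11.8 TPM in LZ libraries. Their part in the results was not tested. Among 4262 protein-coding genes that averaged 20 TPM or more in MycWT LZ B cells, 0 to 5 were at 0 in each LZ library. In MBCs 72 were at 0 in mouse 1, 126 in mouse 3 and 4 in mouse 4. The genes were chosen by their MycWT LZ level, which by itself favors zeros in MBCs over LZ. A 0 in MBCs can be a failed estimate or a gene that is off, and these counts cannot tell which. Myc itself stood at 30.7 to 45.2 TPM in MycWT LZ and 24.9 to 66.8 TPM in MycVD LZ, and these values cannot show a single substitution. In MBCs of mice 1, 3 and 4 Myc was at 82.9, 43.2 and 69.7 TPM. In bulk RNA, fewer cells that express a gene and less RNA of it per cell cannot be told apart.

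The promoters of members that moved together or stood out in a comparison were read from RefSeq (GRCm38.p6), which held windows for 36 of the 39 members, all but Srm, Dhodh and Pfas. Each sequence is given 5′ to 3′ on the gene's own strand and ends 1 base before the RefSeq start, and capitals mark a match to one of the motifs searched. These were the E-box CACGTG, the CCAAT box (CCAAT, or ATTGG on the other strand) and the E2F motifs TTTCCCGC and TTTGGCGC (or GCGGGAAA and GCGCCAAA), none of which contains another. The sequences below are examples and not all that fit the reasons given. Tyms, Dtymk, Rrm1 and Rrm2 supply deoxynucleotides and fell in MBCs. Impdh2 and Ctps had LZ values, on TPM as deposited, without overlap between the genotypes. Dut and Dck also supply deoxynucleotides and fell in MBCs but are not shown, and their windows held no match to any of the motifs. Dhodh, Adsl, Dut, Nme2 and Psat1 also lacked overlap between the genotypes and are not shown.
Tyms, chr5:30073626-30073875, minus strand: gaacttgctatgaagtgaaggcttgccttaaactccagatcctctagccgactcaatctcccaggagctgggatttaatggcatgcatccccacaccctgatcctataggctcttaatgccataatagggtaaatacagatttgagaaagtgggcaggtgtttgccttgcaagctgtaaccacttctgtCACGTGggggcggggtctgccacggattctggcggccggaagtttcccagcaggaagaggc
Dtymk, chr1:93801935-93802184, minus strand: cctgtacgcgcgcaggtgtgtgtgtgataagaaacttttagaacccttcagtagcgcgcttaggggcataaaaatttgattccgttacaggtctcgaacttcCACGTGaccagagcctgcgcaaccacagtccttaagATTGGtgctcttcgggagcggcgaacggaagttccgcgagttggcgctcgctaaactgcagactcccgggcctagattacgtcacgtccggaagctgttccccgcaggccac
Rrm1, chr7:102441445-102441694, plus strand: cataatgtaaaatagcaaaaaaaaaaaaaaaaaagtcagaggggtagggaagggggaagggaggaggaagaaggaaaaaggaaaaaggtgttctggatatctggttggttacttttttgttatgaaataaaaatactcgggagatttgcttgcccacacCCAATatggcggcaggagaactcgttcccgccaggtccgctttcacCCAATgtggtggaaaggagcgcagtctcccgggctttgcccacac
Rrm2, chr12:24708004-24708253, plus strand: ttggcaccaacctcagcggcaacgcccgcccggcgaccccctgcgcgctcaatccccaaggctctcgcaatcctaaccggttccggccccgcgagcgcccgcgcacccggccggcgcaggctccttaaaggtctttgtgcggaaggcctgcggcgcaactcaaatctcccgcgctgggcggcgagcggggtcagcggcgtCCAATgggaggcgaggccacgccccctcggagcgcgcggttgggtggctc
Impdh2, chr9:108560186-108560435, plus strand: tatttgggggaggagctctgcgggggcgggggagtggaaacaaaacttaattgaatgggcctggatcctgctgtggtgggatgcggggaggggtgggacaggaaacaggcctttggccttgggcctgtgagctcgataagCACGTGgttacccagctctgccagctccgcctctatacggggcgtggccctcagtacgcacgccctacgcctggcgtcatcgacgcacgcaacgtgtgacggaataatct
Ctps, chr4:120570277-120570526, minus strand: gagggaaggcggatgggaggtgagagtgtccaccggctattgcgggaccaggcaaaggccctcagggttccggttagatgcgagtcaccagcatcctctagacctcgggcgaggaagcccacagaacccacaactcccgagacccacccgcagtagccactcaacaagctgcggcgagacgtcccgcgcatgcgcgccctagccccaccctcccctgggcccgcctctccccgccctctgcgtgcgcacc

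CACGTG was found in the window of 6 of the 36 members (16.7%), which were Tyms, Dtymk, Impdh2, Atic, Nme1 and Paics, and in 6.86% of all 27025 genes with a window. In Tyms it began 61 bases before the start, in Dtymk 148 bases and in Impdh2 110 bases before it. The RefSeq start of Impdh2 lies 150 bases inside the gene as GENCODE M21 places it, so this match falls within the GENCODE gene. Rrm1 held 2 CCAAT boxes, 91 and 45 bases before the start, and Rrm2 held 1 at 50 bases. CCAAT was present in 14 members (38.9%) and in 37.5% of all genes. The E2F motifs were found in 1 member, Ppat, and in 1.51% of all genes, and the window of Ctps held no match to any of the motifs. The 6 members with CACGTG had a median log2 difference of -0.69 in MycVD LZ B cells and -1.38 in MBCs, and the 30 members without it -0.54 and -1.18. The ranges of both kinds overlapped, at -1.14 to -0.30 and -1.22 to 0.70 in MycVD LZ B cells. A match is a description of the letters and says nothing of binding in these cells.

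In MycWT LZ B cells the enzymes of deoxynucleotide supply were abundant as a group, and the dNTP hydrolase was higher still. The means of the 7 supply genes ran from 91.9 TPM for Dtymk to 143 TPM for Dut, which placed them at the 95.7th to 97.5th percentile of protein-coding genes. Samhd1, which cuts dNTPs into nucleosides and triphosphate, reached 355 ± 56.2 TPM (SD, n = 4), at the 99.1st percentile. Among purine genes, Paics, a bifunctional enzyme of the middle of the pathway, led with 182 ± 43.8 TPM, and Impdh1 was lowest with 0.62 to 2.88 TPM. The pyrimidine genes stood lower, with means from 6.83 TPM for Dhodh, the mitochondrial dehydrogenase of the pathway, to 22.8 TPM for Ctps2. Within the group the spread between mice was moderate, with a median coefficient of variation of 25.3% over the 39 members against 22.9% over protein-coding genes.

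The first comparison asked which of these genes differ between MBCs and LZ B cells of MycWT mice. Of the 7 genes of deoxynucleotide supply 6 fell in MBCs, 4 of them also with the mouse as a block, and of the 15 de novo purine and pyrimidine genes 1 passed the test. Of the 39 members, 8 fell and 1 rose at an adjusted p under 0.05 in limma, with 35 lower and 4 higher in mean log2(TPM + 1). Over all 13245 genes tested, 5.04% fell and 4.17% rose. The median log2 difference was -1.07 over the members and -0.13 over protein-coding genes. The values of the 3 MBC libraries lay below all 4 LZ values for 17 members, which held for 14.4% of all genes tested, and above them for 1, which held for 11.8% of all genes tested. Within the 3 mice that gave both cell types, 22 members were lower in MBCs of every mouse, 1 was higher in every mouse and 16 were mixed, where 20.5% of all genes tested were lower and 17.1% higher in every mouse. Without the MBC library of mouse 3, which stood out for erythroid genes, 11 members fell and 1 rose, where 5.90% and 6.78% of all genes did. The count depended on other libraries, since 3 or 4 members passed when any 1 of the 4 LZ libraries was left out, with 342 to 519 of all genes, and 15 when the MBC library of mouse 4 was. Of these 14 fell and 1 rose, where 14.0% and 7.06% of all genes did. With the mouse as a block 4 members passed, all lower, where 0.897% of all genes were called lower, and 248 of all genes passed in place of 1219. Of the 9, Tyms, Dut, Dck and Shmt1 passed also without a filter on low values.

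**Figure D1:**
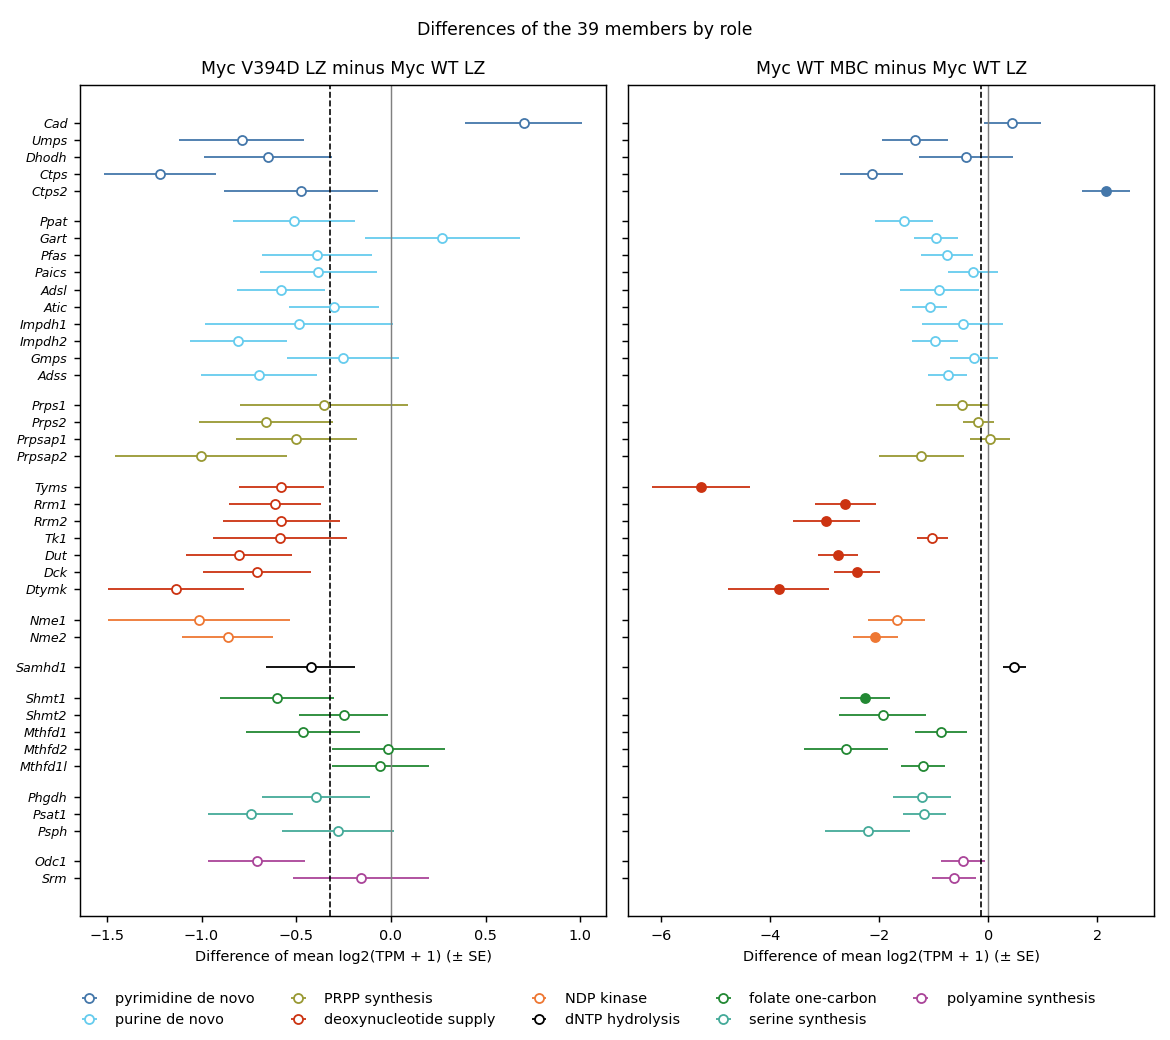
Difference of mean log2(TPM + 1), in log2 units with its standard error, for each of the 39 members grouped by role, in MycVD LZ (left) and MycWT MBCs (right) against MycWT LZ. Filled points passed an adjusted p of 0.05 in limma, the dashed line is the median protein-coding gene (-0.32 and -0.13) and the solid line is 0, and the 2 panels have axes of their own. On the right 6 of the 7 genes of deoxynucleotide supply are filled and lie between -2.40 and -5.26, with Ctps2 alone filled above 0, and on the left no point is filled.

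All 7 genes of deoxynucleotide supply had lower TPM in every MBC library than in any LZ library, against 14.4% of all genes, and 6 passed the test against 5.04% of all genes, with a median log2 difference of -2.75. Tyms, thymidylate synthase, which makes dTMP from dUMP with a folate cofactor, was at 114, 113, 109 and 75.6 TPM in LZ B cells of mice 1 to 4 and at 0.11, 0 and 16.1 TPM in MBCs of mice 1, 3 and 4. The MBC libraries of mice 1 and 3 listed it at or near 0 and that of mouse 4 was higher, still below every LZ library. The log2 difference was -5.26 ± 0.90 (SE, adjusted p = 0.0110), which includes a library listed at 0 and so depends on the pseudocount of 1. Dtymk, the kinase that takes dTMP one step on towards dTTP, was at 63.7, 124, 99.5 and 80.5 TPM in LZ and 9.19, 0 and 23.4 TPM in MBCs. Mouse 3 was again listed at 0 and mouse 4 was again the highest MBC library, without overlap with LZ. Dtymk fell by 3.84 ± 0.92 on the log2 scale (adjusted p = 0.0356), a call that was lost with the mouse as a block (adjusted p = 0.0608), with a pseudocount of 0.1 (0.0956), without a filter (0.0922) and without the trend (0.0551). Without the MBC library of mouse 3 the difference was -2.51 (adjusted p = 0.0106).

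Rrm1 and Rrm2, the large and small subunits of ribonucleotide reductase, which turns ribonucleotides into deoxynucleotides, fell alongside. Rrm1 was at 129, 103, 138 and 82.9 TPM in LZ and 26.6, 5.24 and 33.9 TPM in MBCs, and Rrm2 at 137, 132, 182 and 92.2 TPM and 28.4, 4.21 and 31.2 TPM. Neither gene overlapped between the cell types, and for both the MBC library of mouse 3 lay several-fold under those of mice 1 and 4. Mean TPM were 5.17-fold lower in MBCs for Rrm1 (log2 difference -2.62 ± 0.56, adjusted p = 0.0244) and 6.38-fold lower for Rrm2 (-2.97 ± 0.61, adjusted p = 0.0217). Without mouse 3's MBC library the differences were -1.85 and -2.11, each still past the threshold (adjusted p = 0.00809 and 0.00638). With the mouse as a block the adjusted p of Rrm1 was 0.0574 and that of Rrm2 0.0494. Rrm2b, the small subunit that serves resting cells, also fell (log2 difference -1.35 ± 0.33, adjusted p = 0.0372), but less in mean and with the call lost under the block (adjusted p = 0.212). The log2 ratio of Rrm2 to Rrm2b was 0.22 to 0.94 in MycWT LZ libraries and -0.18, -2.48 and -0.54 in MBCs of mice 1, 3 and 4, so the order of these subunits was the opposite in MBCs.

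Dut, the dUTPase that keeps uracil out of DNA and yields dUMP for Tyms, gave the smallest adjusted p of the 39 members. It was at 136, 149.5, 170.3 and 115 TPM in LZ and 10.7, 27.8 and 27.0 TPM in MBCs, 6.54-fold lower in mean (log2 difference -2.75 ± 0.36, adjusted p = 0.00423). Dck, deoxycytidine kinase of the salvage route, was at 134, 135, 186 and 109 TPM and 38.1, 11.8 and 35.4 TPM, 4.95-fold lower (-2.40 ± 0.42, adjusted p = 0.0119). Both were far below LZ in all 3 mice, and mouse 1 was lowest for Dut but mouse 3 for Dck. Tk1, the cytosolic thymidine kinase of S phase, was at 131, 109, 112 and 77.0 TPM and 53.6, 62.6 and 40.0 TPM. Its ranges did not overlap, but the difference was smaller and missed the threshold (log2 difference -1.03 ± 0.28, adjusted p = 0.0540). Calls for Tyms, Dut and Dck held in each of the 7 fits that left out 1 library, while Rrm1, Rrm2 and Dtymk passed in 3, 4 and 2 of them, and Ctps2, Nme2 and Shmt1 in 4, 4 and 3.

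Genes of DNA replication moved with this group. Of 25 such genes, 16 fell in MBCs, 5 of them also with the mouse as a block, where 5.04% of all genes fell. All 25 were lower in mean log2(TPM + 1), although Cdt1 was higher in mean TPM, and their summed TPM was 520, 885 and 703 in MBCs of mice 1, 3 and 4 against 1716 to 2606 in MycWT LZ. Their part in the result was not tested.

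Samhd1, which was chosen for description after its values were seen, stood against the supply genes. It was at 421, 334, 376 and 290.1 TPM in LZ and 398, 558 and 533 TPM in MBCs. Mice 3 and 4 had more in MBCs than any LZ library, whereas mouse 1 lay within the LZ range, and the difference did not pass the test (log2 difference 0.48 ± 0.21, adjusted p = 0.184). The log2 ratio of Samhd1 to Rrm2 was 1.05 to 1.64 in MycWT LZ libraries and 3.76, 6.74 and 4.05 in MBCs of mice 1, 3 and 4, without overlap. This ratio was also computed after the values were seen, and the larger of the differences behind it is that of Rrm2.

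**Figure D2:**
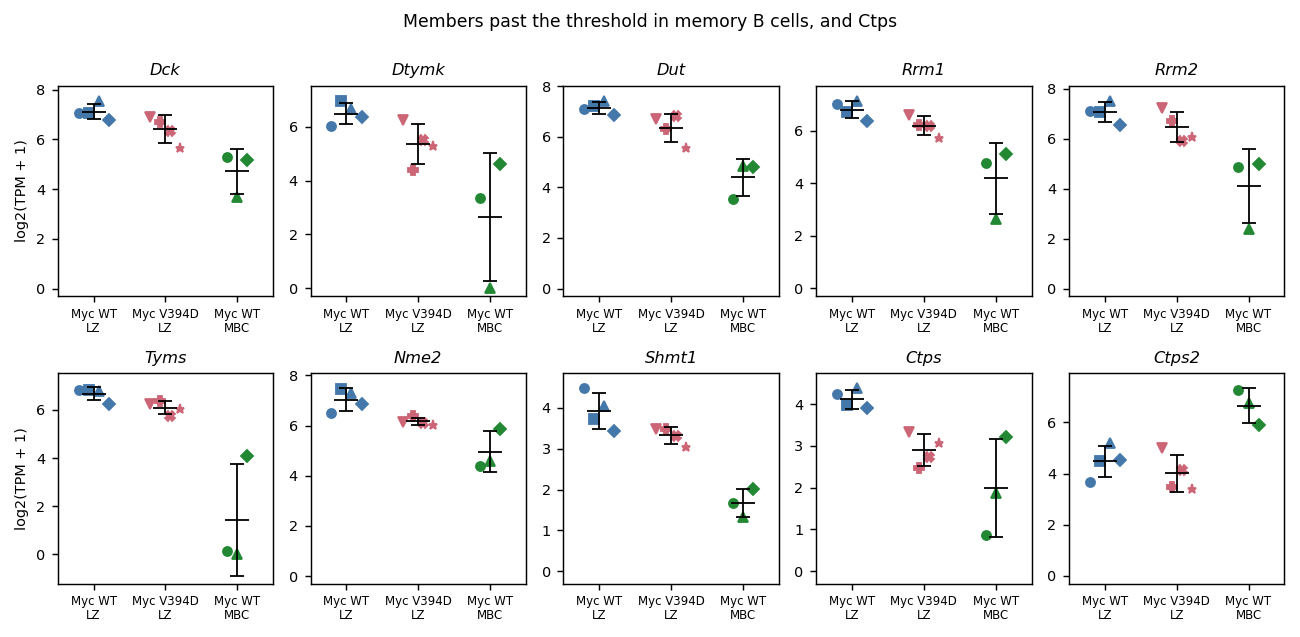
Level of the 9 members past the threshold in MBCs and of Ctps, as log2(TPM + 1), in each library of MycWT LZ, MycVD LZ and MycWT MBCs. Each point is 1 mouse, with 1 symbol shape per mouse, and bars give the mean ± SD of the group. In every panel except that of Ctps2 the 3 MBC points lie below all 4 MycWT LZ points, and in that of Ctps2 they lie above them.

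The diphosphate kinases Nme1 and Nme2, which make triphosphates of all bases, were lower in MBCs of each mouse. Nme2 was at 88.6, 177, 157 and 115 TPM in LZ and 20.2, 23.3 and 57.9 TPM in MBCs, without overlap, 3.99-fold lower in mean (log2 difference -2.07 ± 0.41, adjusted p = 0.0191, or 0.0729 with the mouse as a block). Nme1 was at 49.6, 60.7, 63.7 and 32.2 TPM and 9.42, 37.5 and 9.03 TPM, and mouse 3 reached the LZ range. It did not pass (adjusted p = 0.0771). Reads of both can be shared with the read-through gene Gm20390 (up to 14.8 TPM in a library), and those of Nme2 with the pseudogene Gm7730 (up to 21.8 TPM), so the split among them is uncertain.

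The balance between the genes of CTP synthetase, which aminates UTP to CTP as the last step of pyrimidine synthesis, differed between the cell types. Ctps2 was the only member that rose in MBCs. It was at 11.9, 21.6, 35.5 and 22.2 TPM in LZ and 153, 107 and 59.4 TPM in MBCs, 4.67-fold higher in mean (log2 difference 2.17 ± 0.44, adjusted p = 0.0212), and every MBC library exceeded every LZ library. With the mouse as a block the difference was 2.17 and missed the threshold (adjusted p = 0.0754), and within mice 1, 3 and 4 it was 3.58, 1.56 and 1.38. Ctps, named after its values were seen, was at 17.9, 14.7, 19.95 and 13.9 TPM in LZ and 0.83, 2.65 and 8.29 TPM in MBCs. All MBC values lay below the LZ values, and the difference missed the threshold (log2 difference -2.14 ± 0.58, adjusted p = 0.0533), with adjusted p between 0.0197 (all 3 groups in 1 fit) and 0.232 (the mouse as a block) in the other settings that kept all libraries. Ctps2 made up 39.9% to 64.0% of the summed TPM of the pair in MycWT LZ libraries and 99.5%, 97.6% and 87.8% in MBCs of mice 1, 3 and 4. The genes lie on different chromosomes, Ctps at chr4:120539868-120570276 and Ctps2 at chrX:162901238-163032508 (GRCm38, GENCODE M21), and no near-identical copy of either was found above 1 TPM.

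**Figure D3:**
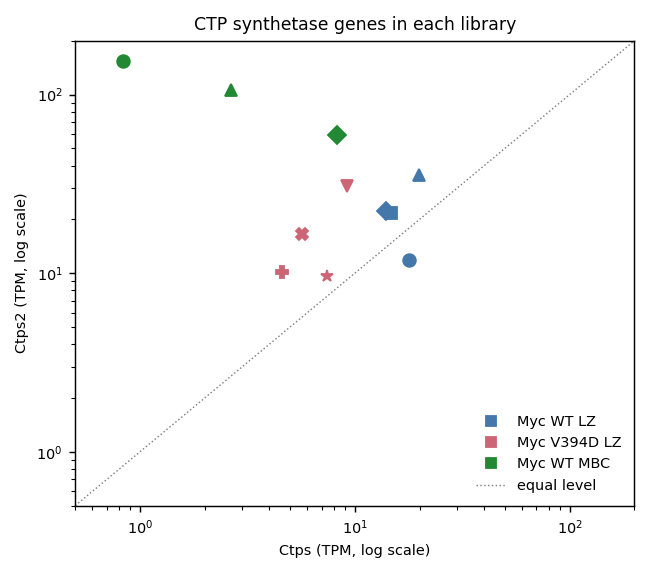
TPM of Ctps (x axis) and Ctps2 (y axis), both on log scales, in each of the 11 libraries, colored by group with 1 symbol shape per mouse. The dotted line marks equal levels. The 3 MBC libraries stand in the upper left, at 0.83 to 8.29 TPM of Ctps and 59.4 to 153 TPM of Ctps2, and the LZ libraries lie near the line, those of MycVD to the left of those of MycWT.

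Of the other 3 pyrimidine genes, none passed or had an unadjusted p under 0.05 in limma. Cad, the trifunctional enzyme that starts the pathway, was at 26.6, 19.2, 26.0 and 13.5 TPM in LZ and 13.6, 64.5 and 25.6 TPM in MBCs, and Umps, which makes UMP, at 18.7, 17.8, 24.5 and 10.4 TPM and 14.8, 1.93 and 6.93 TPM. The MBC library of mouse 3 lay above the LZ range for Cad and, with that of mouse 4, below it for Umps, and the others lay within it. None of the 10 purine genes passed in limma either, although all 10 were lower in mean log2(TPM + 1) and 4 had an unadjusted p under 0.05 (15.8% of all genes were lower at that p), with log2 differences from -1.55 for Ppat, the amidotransferase that commits PRPP to purines, to -0.26 for Gmps, GMP synthetase. Only Atic, which closes the purine ring, and Adss, which leads from IMP towards AMP, had MBC values below all LZ values. Paics was at 275, 63.0 and 178 TPM in MBCs of mice 1, 3 and 4 against 127 to 223 TPM in LZ, so mouse 1 was above and mouse 3 below the LZ range. The median log2 difference of the 15 de novo genes was -0.75, against -2.75 for the 7 supply genes. The 4 genes of PRPP synthesis, which make or regulate the sugar donor, ran from -1.22 to 0.04, and none reached an unadjusted p of 0.05 in limma.

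Genes of one-carbon supply were lower in MBCs of each mouse, but only Shmt1 passed in limma. Shmt1, the cytosolic serine hydroxymethyltransferase, which moves a carbon from serine to folate, was at 21.4, 12.4, 15.6 and 9.9 TPM in LZ and 2.17, 1.5 and 3.07 TPM in MBCs. The groups were well apart, with a mean 6.60-fold lower (log2 difference -2.26 ± 0.46, adjusted p = 0.0215), but the call was lost with the mouse as a block (adjusted p = 0.198). Its mitochondrial counterpart Shmt2 was at 94.4, 63.2, 98.9 and 57.2 TPM and 70.1, 3.3 and 25.8 TPM, so that mouse 1 lay inside the LZ range and mouse 3 far below it. Mthfd2, the mitochondrial dehydrogenase known for its low level in resting tissue, was at 15.6, 24.8, 32.5 and 16.2 TPM and 3.41, 0 and 10.1 TPM, without overlap but past the threshold only in 1 of the 7 fits that left out a library (log2 difference -2.61 ± 0.77, adjusted p = 0.0667). The 3 genes of serine synthesis, Phgdh, Psat1 and Psph, were lower in all 3 mice with log2 differences of -1.22, -1.17 and -2.21, each at an unadjusted p under 0.05, as 15.8% of all genes were, and missed the adjusted threshold in limma. Odc1 and Srm, which start polyamine synthesis, overlapped between the cell types, and pseudogenes near-identical to Odc1 reached 27.7 TPM in a library.

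The wider pathway was read from 79 further genes, of which 63 were tested, and 10 fell and 1 rose in MBCs, against 5.04% and 4.17% of all genes. Dctpp1, which hydrolyzes dCTP and its modified forms, was at 63.4, 59.5, 68.7 and 39.6 TPM in LZ and 0, 0 and 2.01 TPM in MBCs (log2 difference -5.32 ± 0.51, adjusted p = 0.00149). Entpd1, the surface ATP and ADP hydrolase CD39, was at 0, 0, 0.5 and 0.03 TPM and 7.44, 15.3 and 12.8 TPM (3.47 ± 0.50, adjusted p = 0.00562). Both separated the cell types in every library, and Entpd1 was the gene that rose. Uck2, uridine-cytidine kinase, was at 53.6, 19.5, 36.8 and 22.3 TPM and 6.62, 0 and 5.93 TPM (-3.07 ± 0.75, adjusted p = 0.0375), and Nme6, a mitochondrial member of the diphosphate kinase family, at 9.74, 11.8, 10.9 and 9.61 TPM and 0, 0.26 and 4.87 TPM (-2.56 ± 0.66, adjusted p = 0.0464). Values of 0 make these differences depend on the pseudocount, and with 0.1 in place of 1 they were -7.68 for Dctpp1, 6.10 for Entpd1, -4.26 for Uck2 and -4.23 for Nme6, the last pair without a call (adjusted p = 0.0985 and 0.0771). With the mouse as a block Dctpp1 still passed, and Entpd1, Uck2 and Nme6 did not (adjusted p = 0.0142, 0.0802, 0.0805 and 0.213). Among the others that fell were the salvage enzyme Hprt, the adenylate kinase Ak6, Rrm2b, the glycine cleavage gene Gcsh and the polyamine regulator Azin1. With the block, 2 of the 10 that fell still passed, Dctpp1 and Ak6, and the calls of Hprt, Gcsh and Azin1 were lost (adjusted p = 0.181, 0.185 and 0.209). Of the 11, Dctpp1, Entpd1 and Ak6 passed in each of the 7 fits that left out a library.

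As a share of all protein-coding TPM, the 39 members took 0.483% ± 0.0535 (SD, n = 4) in MycWT LZ B cells, 0.436% ± 0.0362 (n = 4) in MycVD LZ B cells and 0.305% ± 0.0131 (n = 3) in MBCs. The supply genes differed most between the cell types, at 0.160% ± 0.0173 in MycWT LZ and 0.0317% ± 0.00879 in MBCs, with each MBC library below each LZ library. The purine genes took 0.0914% ± 0.0130 in MycWT LZ and 0.0677% ± 0.0225 in MBCs, which overlapped. Pyrimidine genes took 0.0163% ± 0.00220 and 0.0318% ± 0.00890, higher in every MBC library, where Ctps2 made up most of it. Samhd1 alone took 0.0686% ± 0.0103 in MycWT LZ and 0.0974% ± 0.0154 in MBCs, where it exceeded the 7 supply genes together in each of the 3 mice.

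**Figure D4:**
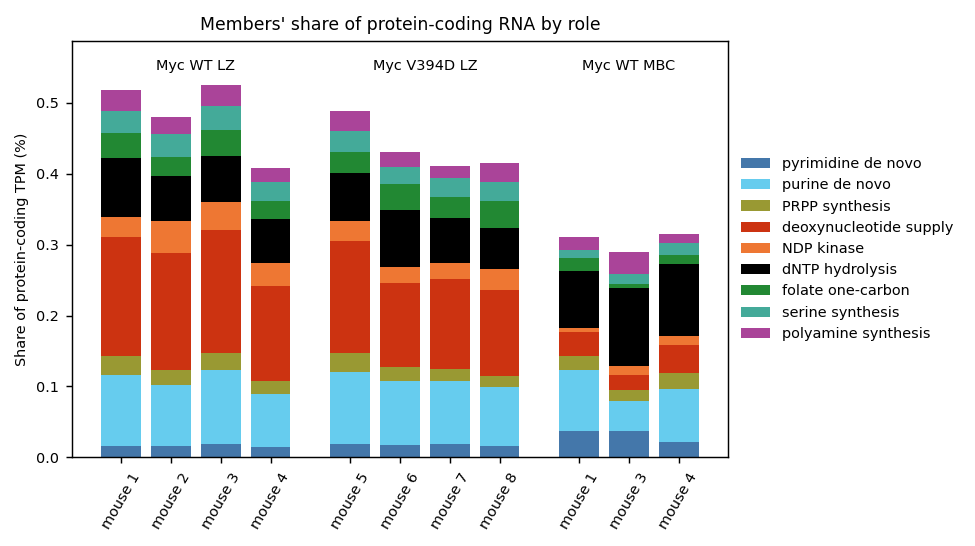
Share of protein-coding TPM (%, stacked bars from 0) taken by each role of the 39 members in each of the 11 libraries, 1 bar per library. The segment of deoxynucleotide supply covers 0.135% to 0.173% in MycWT LZ, 0.119% to 0.159% in MycVD LZ and 0.0221% to 0.0394% in MBCs, where the Samhd1 segment (dNTP hydrolysis) is the larger.

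The other comparison asked whether the members differ between MycVD and MycWT LZ B cells, against the same 4 MycWT LZ libraries. No member passed the test at an adjusted p of 0.05 in limma, and 6 of 12869 genes did (0.0466%). At an unadjusted p under 0.05, 14 members were lower and 1 was higher, where 15.7% of all genes tested were lower. In mean log2(TPM + 1), 37 members were lower in MycVD and 2, Cad and Gart, were higher. Of protein-coding genes 76.7% were lower in mean. On TPM rescaled to protein-coding genes 28 members were lower and 11 higher, where 47.7% of protein-coding genes were lower, and 4 members were lower at an unadjusted p under 0.05 against 5.37% of all genes. The median log2 difference of the members was -0.58 where that of protein-coding genes was -0.32, and after rescaling -0.20 where it was 0.03. A list of 6 plasma cell genes summed to 401 to 612 TPM in MycWT LZ and 193 to 332 TPM in MycVD LZ, mostly through Jchain and Mzb1. Jchain was at 152 to 280 TPM in MycWT LZ and 67.1 to 144 TPM in MycVD LZ, and Mzb1 at 135 to 243 and 58.9 to 111 TPM. The others, Xbp1, Irf4, Prdm1 and Sdc1, overlapped between the genotypes. The part of these genes in the result was not tested. On TPM as deposited, all MycVD values lay below all MycWT values for 7 members, which held for 9.16% of all genes tested. Protein-coding genes took 46.9% to 57.5% of TPM in MycWT LZ libraries and 30.7% to 47.7% in MycVD LZ libraries. The ranges of single genes were not compared on the protein-coding scale, so a lack of overlap may not hold there.

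Ctps had the smallest p of the 39 members on TPM as deposited, and Cad on the protein-coding scale. Ctps was at 17.9, 14.7, 19.95 and 13.9 TPM in MycWT mice 1 to 4 and 9.15, 4.56, 5.65 and 7.41 TPM in MycVD mice 5 to 8. The genotypes were apart by more than the spread within either, at 2.48-fold lower mean TPM in MycVD (log2 difference -1.22 ± 0.30, unadjusted p = 0.00153 and adjusted p = 0.111 in limma), and the difference remained -0.87 on the protein-coding scale. Without mouse 5, the highest of the MycVD libraries, it passed the threshold (log2 difference -1.36, adjusted p = 0.0447), in a fit in which 254 of all genes did. Ctps2 was at 30.6, 10.2, 16.6 and 9.62 TPM in MycVD, overlapped with MycWT and made up 56.5% to 77.0% of the pair.

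Nme2 was at 88.6, 177, 157 and 115 TPM in MycWT and 69.7, 82.4, 68.5 and 64.6 TPM in MycVD. The MycVD values were the tightest of all members, with a coefficient of variation of 10.8%. On TPM as deposited they lay below all MycWT values (log2 difference -0.86 ± 0.24, adjusted p = 0.132). Psat1, the aminotransferase of serine synthesis, was at 92.4, 102, 122 and 84.2 and 75.4, 56.7, 64.1 and 43.8 TPM, and Impdh2, which commits IMP to guanine nucleotides, at 49.1, 55.5, 80.3 and 49.3 and 47.1, 26.5, 30.1 and 29.2 TPM. On TPM as deposited neither overlapped between the genotypes, and neither passed (log2 differences -0.74 ± 0.22 and -0.81 ± 0.26, adjusted p = 0.153 and 0.166). On the protein-coding scale the differences were -0.48 for Nme2, -0.36 for Psat1 and -0.43 for Impdh2.

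In the deoxynucleotide group all 7 genes were lower in mean in MycVD, with log2 differences from -1.14 to -0.58, and on the protein-coding scale all 7 remained lower with a median of -0.23. Dtymk was at 63.7, 124, 99.5 and 80.5 TPM in MycWT and 74.9, 20.1, 44.2 and 38.2 TPM in MycVD, with mouse 5 inside the MycWT range (log2 difference -1.14 ± 0.36, adjusted p = 0.164). Dut was at 136, 149.5, 170.3 and 115 and 105, 77.4, 112 and 46.5 TPM, just without overlap as deposited (-0.80 ± 0.28, adjusted p = 0.193). Tyms was at 114, 113, 109 and 75.6 and 75.9, 80.7, 52.6 and 64.8 TPM, where mouse 4, the MycWT mouse with another name prefix, fell among the MycVD mice (-0.58 ± 0.22, adjusted p = 0.228). Odc1, ornithine decarboxylase, was at 113, 105, 129 and 73.1 and 88.2, 69.6, 49.3 and 50.4 TPM and overlapped likewise through mouse 4 (-0.71 ± 0.26, adjusted p = 0.207). On the protein-coding scale Dtymk was at -0.76, Dut at -0.42, Tyms at -0.20 and Odc1 at -0.33.

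Cad, named after its values were seen, went the other way. It was at 26.6, 19.2, 26.0 and 13.5 TPM in MycWT and 32.4, 48.0, 40.2 and 21.7 TPM in MycVD. Mice 5, 6 and 7 exceeded every MycWT mouse and mouse 8 lay among them (log2 difference 0.70 ± 0.31, unadjusted p = 0.0432 and adjusted p = 0.279). On the protein-coding scale the difference was 1.07 (unadjusted p = 0.00162, adjusted p = 0.165). Gart, a trifunctional purine enzyme, was higher in mean through mouse 6 alone, at 16.6, 66.2, 24.0 and 16.7 TPM in MycVD against 15.4 to 28.8 TPM in MycWT, and without that library the log2 difference turned from 0.27 to -0.17. The log2 differences of the 5 folate genes were -0.60 for Shmt1, -0.46 for Mthfd1, -0.25 for Shmt2, -0.05 for Mthfd1l and -0.01 for Mthfd2, and on the protein-coding scale the last 3 were higher in MycVD. Of the 61 further pathway genes tested, none passed in limma and 21 were lower at an unadjusted p under 0.05, against 15.7% of all genes, and on the protein-coding scale 11 were, against 5.37%.

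**Figure D5:**
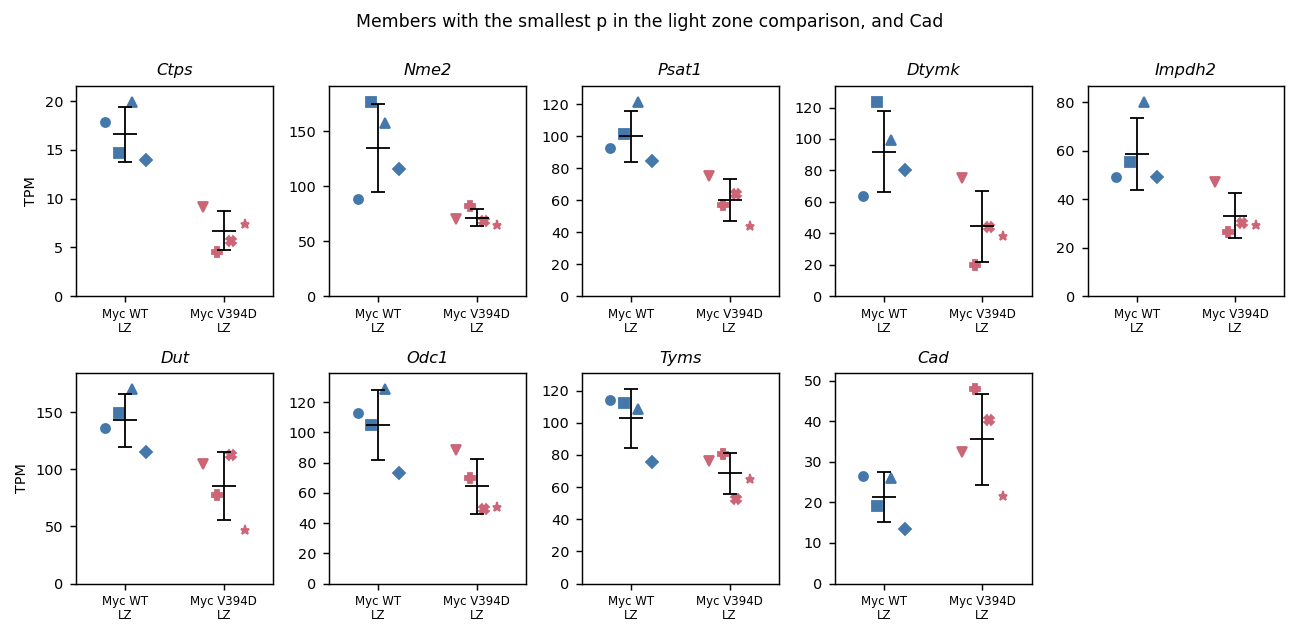
TPM of the 8 members with the smallest p in the LZ comparison and of Cad, in each MycWT (left) and MycVD (right) LZ library, on linear axes from 0. Each point is 1 mouse, with 1 symbol shape per mouse, and bars give the mean ± SD. On TPM as deposited, Ctps, Nme2, Psat1, Impdh2 and Dut do not overlap between the genotypes, and Dtymk, Odc1 and Tyms do. Cad is higher in 3 of the 4 MycVD mice than in any MycWT mouse.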

How the data were processed

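The authors aligned reads with STAR 2.5.2a and estimated gene levels with RSEM 1.3.0, strand by strand, on Ensembl genes of GRCm38 (tools and build per the labels and the methods), and deposited TPM with 2 decimals in 1 table. Their DESeq2 results were not used here. TPM keep no depth, so precision comes from the spread between mice. Symbols and coordinates were taken from GENCODE M21. The test was limma's (3.58.1, R 4.3.3; lmFit, then eBayes with trend) on log2(TPM + 1), two-sided, in genes that averaged 1 TPM or more over the libraries fitted, which were those of the 2 groups only, and p was adjusted over all of these genes by Benjamini-Hochberg. Fold changes of low genes are understated on this scale. The fit was tested on simulated data. Near-identical transcripts (at least 95% over 400 bases) were sought with blastn 2.17.0. Described one by one were members past 0.05 or, where fewer than 8 passed, the 8 with the smallest p, and the 4 further pathway genes with the largest differences among those past 0.05. The members, lists and tests were chosen with earlier results of these data known. Mice 1, 3 and 4 gave both cell types by their labels, so that the numbers pair these libraries, although the deviations of paired libraries from their group means were uncorrelated across genes (r = 0.0047, 0.0017 and -0.035). Other settings tried were the smaller pseudocount of 0.1, no filter or one at 5 TPM, 3 rescalings, eBayes with no trend, a fit of all 3 groups, each library left out in turn, and the mouse as a block.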

Additional observations from a re-analysis of the deposited data

Results flagged for a closer look

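Of 78 sets of 4 LZ values, 39 members in each genotype, 3 held a mouse far from the other 3, by Dixon's 95% limit, and chance alone gives about 1 in 20. Tyms in MycWT LZ was lowest in mouse 4, at 75.55 TPM against 108.88 to 114.06 TPM in mice 1 to 3. Gart in MycVD LZ was highest in mouse 6, at 66.21 TPM against 16.62 to 23.96 TPM. Phgdh in MycVD LZ was highest in mouse 5, at 41.48 TPM against 26.9 to 28.71 TPM.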

How the results depend on the processing

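The median log2 difference of the members minus that of protein-coding genes kept its direction in every setting tried and moved by less than its SD between libraries of a group (0.27 in the MBC comparison, 0.24 in MycVD), from -1.12 to -0.89 in MBCs (reported, -0.94) and from -0.43 to -0.19 in MycVD LZ (reported, -0.26, and -0.43 without a filter). Leaving out 1 library gave -1.05 to -0.89 and -0.28 to -0.19. Counts of calls moved more, and the cause was not tested. In MBCs 9 members passed as reported, 4 without a filter on low values, 15 with quantile normalization, 14 with all 3 groups in 1 fit, 4 with the mouse as a replicate block, and 3 (without LZ mouse 2) to 15 (without MBC mouse 4) when a library was left out. All genes called were 1219, against 608 without a filter, 248 with the block, and 342 (without LZ mouse 2) to 2754 (without MBC mouse 4) when a library was left out. Between the genotypes 6 genes passed, against 0 with a pseudocount of 0.1, without a filter, after rescaling by the median ratio or with all 3 groups in 1 fit, 1 after rescaling to protein-coding genes, 15 at a mean of 5 TPM or more, and 0 to 254 (without MycVD mouse 5) with a library left out, where 0 or 1 member passed. Over all 39 members, the direction turned in at least 1 setting for 11 in MycVD, 10 of them on rescaled or quantile-normalized TPM, and for 6 in MBCs, none of which had passed the test. Without the MBC library of mouse 3, Cad went from 0.44 to -0.13 and Paics from -0.28 to 0.32, and without that of mouse 1 Adsl went from -0.89 to 0.04 and Dhodh from -0.41 to 0.78. Of 135 single-gene values of MBCs in settings that kept all libraries, 22 lost the call and 5 gained it, and of 105 with a library left out, 32 lost it and 1 gained it. The calls that the block ended are given beside the genes. TPM hold no depth, so low values cannot be judged against counting error. The comparison with MBCs rests on 3 MBC libraries, which were uneven in genes of other cells.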
